A study of Mus musculus with 18 samples.

Results

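The 10 genes described here encode 7 ligands of the bone morphogenetic protein (BMP) and growth and differentiation factor (GDF) family, *Bmp2*, *Bmp3*, *Bmp4*, *Bmp5*, *Bmp6*, *Bmp7* and *Gdf5*, and 3 of their receptors, *Bmpr1a*, *Bmpr1b* and *Bmpr2*. They were chosen by gene name and are 10 of the 38243 genes counted in each library; each of the 10 symbols was paired with 1 Ensembl identifier. RNA was collected by laser capture microdissection, in which cells of a tissue are cut from frozen sections under a microscope, from the mandible of 6 female C57BL/6 mouse embryos at embryonic day 16.5. Of these, 3 were *Fgfr2+/S252W*, heterozygous for the *Fgfr2* change of Apert syndrome, and 3 were unaffected *Fgfr2+/+* littermates. Each embryo gave 1 library of mandibular bone, 1 of Meckel's cartilage (MC), the rod that precedes the mandible, and 1 of the mandibular condylar cartilage (condyle), the growth cartilage at its joint end, so that 18 libraries fell into 6 groups of 3.

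BMP and GDF ligands are secreted dimers. They bring together a type I receptor such as BMPR1A or BMPR1B and a type II receptor such as BMPR2, which leads to phosphorylation of SMAD1, SMAD5 and SMAD9 and, with SMAD4, to transcription of genes such as those of the ID family. BMPs were named for their power to induce bone; in the skeleton they also drive chondrocytes through their maturation, while GDF5 is known for its part in forming joints. Levels are compared between genes below as FPKM, fragments (read pairs) per kilobase of exon, scaled to a common library size by TMM factors, and differences are on the log2 scale of limma.

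Total fragments per library lay between 8218548 and 15585778. Mitochondrial genes took 19.4 to 38.1% of them and *Gm42418*, a gene that overlaps ribosomal RNA, took 24.1 to 39.4% in MC and 5.58 to 9.33% in bone. *Fgfr2* itself was counted in all groups, between 19.1 FPKM in condyle and 108 FPKM in MC, and a count per gene does not tell the alleles apart. The summed level of 8 cartilage markers was 6330 to 7604 FPKM in condyle and 18.2 to 77.2 FPKM in bone. That of 10 osteoblast and bone markers was 6192 to 9743 FPKM in bone and 300 to 865 FPKM in MC. In condyle these 10 reached 1861 to 6956 FPKM, a range that overlaps with bone. Cartilage markers in MC reached 405 to 1831 FPKM in 5 libraries but 74.4 FPKM in the library labelled *Fgfr2+/+* MC replicate 1, which is within the range of bone. That library goes against its label as cartilage, and MC results of the 10 genes are therefore given with and without it where they differ. Other genes of the pathway are given with that library only. Marker sums of tooth did not exceed 12.3 FPKM in any library.

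**Figure D1:**
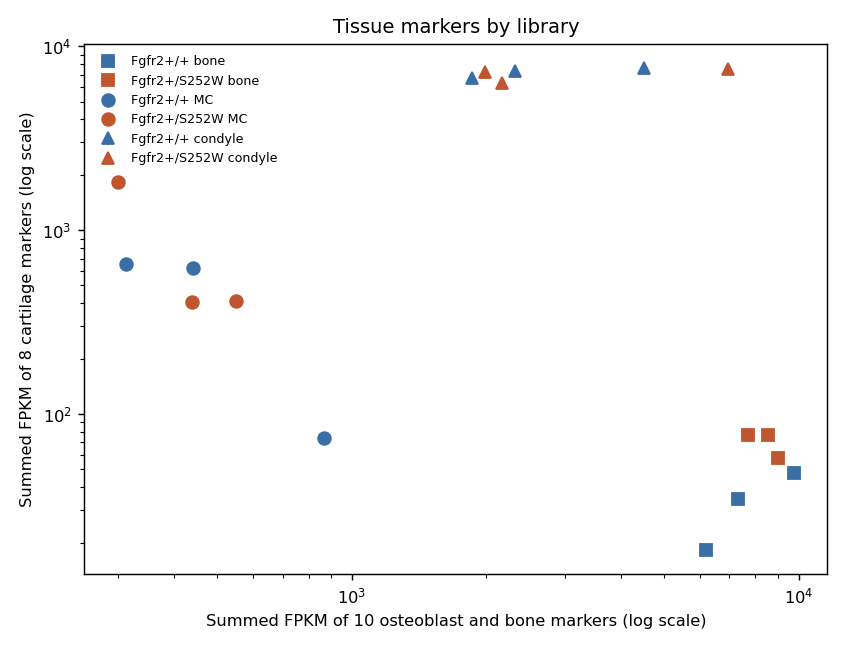
Summed FPKM of 8 cartilage markers against that of 10 osteoblast and bone markers in each of the 18 libraries, both on log scales, with tissue by symbol and genotype by colour. Condyle libraries lie at the top, from 6330 to 7604 FPKM of cartilage markers, and 1 *Fgfr2+/+* MC library lies at 74.4 FPKM, level with bone.

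The ligands made up a different mixture in each tissue. *Bmp3* was the highest ligand in all 6 bone libraries, with 37.8 to 57.8% of the summed FPKM of the 7 ligands, and *Bmp6* was the highest in all 6 condyle libraries, with 49.0 to 68.0%. In MC none of these 7 led in every library, and *Gdf10*, a ligand outside the 7 given below, held 18.8 to 36.4 FPKM there. Among the 7, *Bmp4* led in 4, *Bmp3* in *Fgfr2+/+* replicate 1 and *Gdf5* in *Fgfr2+/+* replicate 2. These leads depend on the exon bases counted: over exon not shared with other genes, *Gdf5* (22.1 FPKM) lay above *Bmp4* (19.6 FPKM) in *Fgfr2+/S252W* replicate 1 and *Bmp5* (12.3 FPKM) above *Bmp3* (7.23 FPKM) in *Fgfr2+/+* replicate 1. The ligand sum was 24.6 to 56.8 FPKM in MC, 50.6 to 84.1 FPKM in bone and 89.4 to 145 FPKM in condyle, so that condyle lay above the other tissues without overlap. The receptor sum varied less, from 52.1 to 59.2 FPKM in bone, 51.1 to 62.8 FPKM in MC and 43.5 to 54.4 FPKM in condyle.

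**Figure D2:**
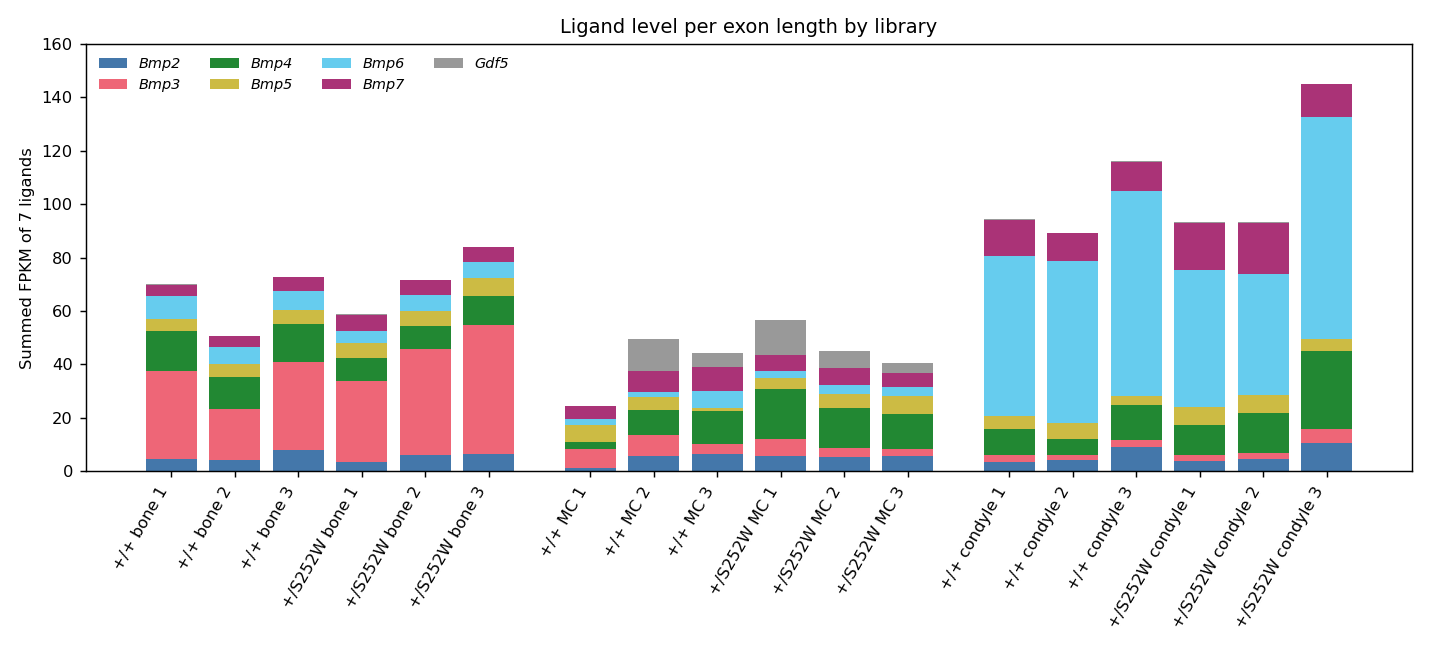
Stacked bars of the FPKM of the 7 ligands in each library, ordered by tissue and genotype. *Bmp3* fills 37.8 to 57.8% of each bone bar and *Bmp6* 49.0 to 68.0% of each condyle bar, and *Gdf5* is visible only in MC.

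Ordered by mean level per exon length, bone held *Bmpr2* (39.2 ± 5.43 FPKM, SD, n = 6), *Bmp3* (34.1 ± 9.79 FPKM), *Bmpr1a* (16.7 ± 3.54 FPKM) and *Bmp4* (11.5 ± 2.67 FPKM), followed by *Bmp6*, *Bmp2*, *Bmp5* and *Bmp7* between 6.42 and 5.25 FPKM, and by *Bmpr1b* (0.224 FPKM) and *Gdf5* (0.0625 FPKM). *Bmpr2* exceeded *Bmp3* in 3 of 6 bone libraries and the 4 ligands between 6.42 and 5.25 FPKM each exceeded the next in 3 of 6, so neither order was beyond their spread on this scale. Over unshared exon *Bmp5* held 8.88 to 12.6 FPKM in bone and lay above *Bmp6* (4.40 to 8.80 FPKM), *Bmp2* and *Bmp7* without overlap. In MC the order was *Bmpr2* (33.9 ± 2.84 FPKM), *Bmpr1a* (21.5 ± 2.26 FPKM) and *Bmp4* (11.9 ± 5.40 FPKM), and then *Gdf5*, *Bmp7*, *Bmp3*, *Bmp2*, *Bmp5*, *Bmp6* and *Bmpr1b* between 6.86 and 1.91 FPKM. *Bmpr2* exceeded *Bmpr1a* and *Bmpr1a* exceeded *Bmp4* in 6 of 6 MC libraries without overlap, and the ranges of all later neighbours overlapped. In condyle *Bmp6* (62.9 ± 14.5 FPKM) stood above *Bmpr2* (35.5 ± 4.25 FPKM) and *Bmpr2* above *Bmpr1a* (14.6 ± 1.44 FPKM) without overlap, while *Bmpr1a*, *Bmp4* (14.1 ± 8.03 FPKM) and *Bmp7* (14.0 ± 3.56 FPKM) overlapped. *Bmp2*, *Bmp5* and *Bmp3* followed between 6.02 and 2.75 FPKM, and *Gdf5* (0.217 FPKM) and *Bmpr1b* (0.0811 FPKM) were lowest.

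Levels per exon length rest on the annotation. The authors' annotation gives *Bmpr2* 3555 bases of exon where GENCODE M21 gives 17983, *Bmp3* 3112 where it gives 7398 and *Bmp6* 2410 where it gives 3900, so that the order between genes depends on it. Fragments were not counted again on GENCODE M21 here. Fragments that overlap several genes were not counted, which removed 1878 of 3822 exon bases of *Bmp5* (shared with *Gm26903*) and 936 of 2320 of *Gdf5* (shared with *Gm15557*). Over unshared exon alone the median of *Gdf5* was 9.93 FPKM in MC, and that of *Bmp5* was 10.4 FPKM in bone, 9.85 FPKM in MC and 10.5 FPKM in condyle. By that median *Bmp5* ranked 5 in MC and 6 in condyle, above *Bmp2* (5.81 and 4.51 FPKM), unlike in the orders above.

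**Figure D3:**
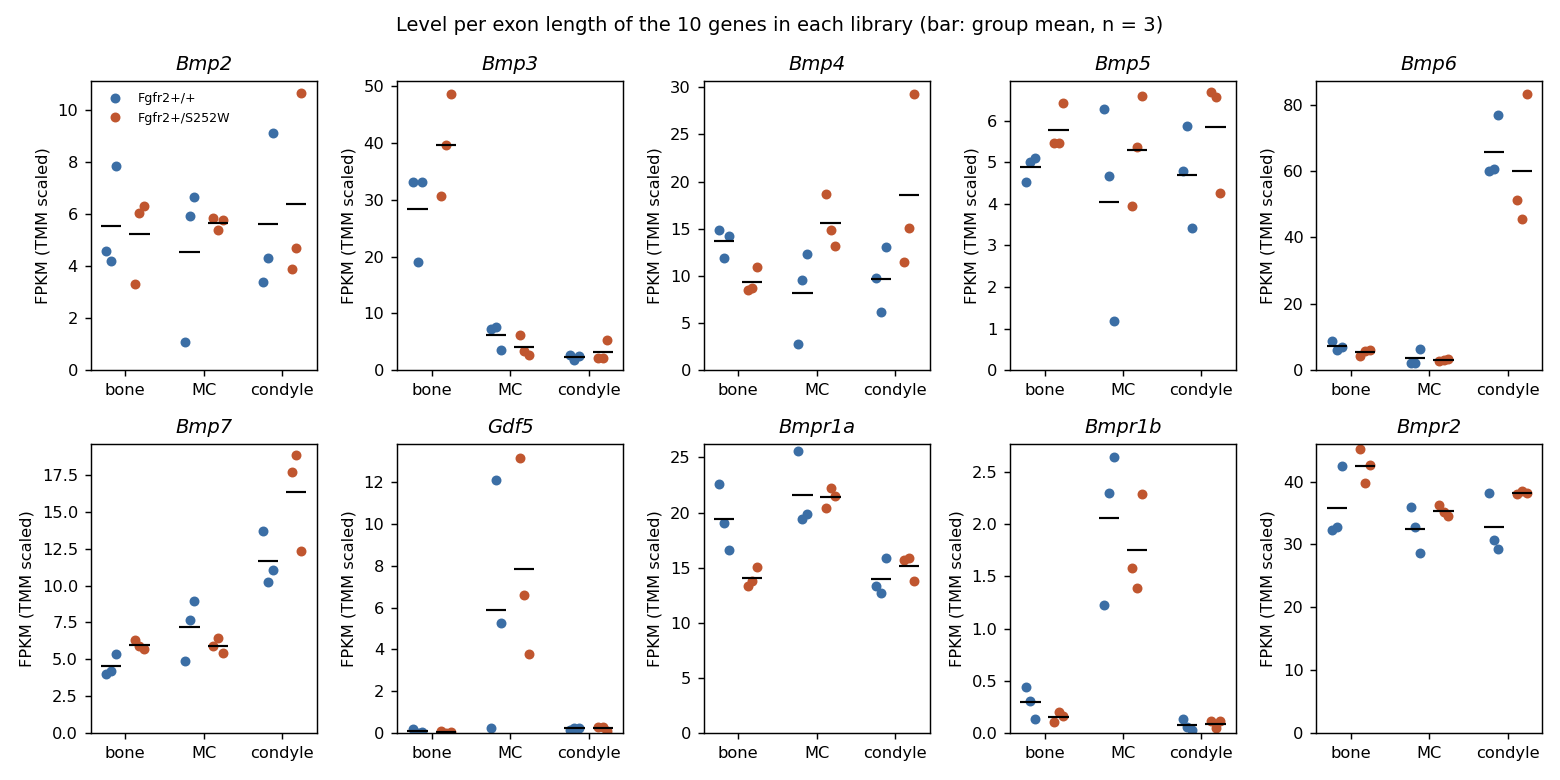
FPKM of each of the 10 genes in the 18 libraries, 1 panel per gene with its own axis from 0, points by library and bars for the mean of 3. *Bmp3* is separate in bone, *Bmp6* and *Bmp7* in condyle, and *Gdf5* and *Bmpr1b* in MC except for 1 *Fgfr2+/+* MC library that holds 0.240 FPKM of *Gdf5*.

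*Bmp6* was the main ligand transcript of the condyle. The gene (ENSMUSG00000039004, chr13:38345716-38499728 on GRCm38, plus strand) encodes a ligand of the same subgroup as BMP5 and BMP7 that is known from maturing chondrocytes. In condyle it was counted at 59.8, 60.7 and 76.8 FPKM in *Fgfr2+/+* and at 51.3, 45.6 and 83.0 FPKM in *Fgfr2+/S252W* embryos. Bone held 8.80, 6.18 and 7.08 FPKM in *Fgfr2+/+* and 4.40, 5.89 and 6.17 FPKM in *Fgfr2+/S252W* embryos, and MC 2.08, 2.06 and 6.46 FPKM and 2.88, 3.18 and 3.27 FPKM. Every condyle library lay above every library of the other tissues, whereas bone and MC overlapped through the third *Fgfr2+/+* MC library.

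The difference of *Bmp6* between condyle and MC within embryos was 4.32 ± 0.24 (log2, SE, n = 6 embryos, limma adjusted p = 4.12e-10), a 20.0-fold higher level. Between bone and condyle it was -3.30 ± 0.25 (limma adjusted p = 1.57e-08), and bone exceeded MC by 1.02 ± 0.26 (limma adjusted p = 0.00354), higher in 6 of 6 embryos. The step between bone and MC was called among *Fgfr2+/+* embryos alone (1.23, limma adjusted p = 0.0149), but not without MC replicate 1 of these (0.86, limma adjusted p = 0.111), and not among *Fgfr2+/S252W* embryos alone (0.82, limma adjusted p = 0.0990).

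The promoter of *Bmp6*, which had the largest tissue difference among the 8 genes in the fit of 11469, is shown beside that of *Bmpr2*, whose tissue differences were at most 0.20. Both were taken from RefSeq on GRCm38.p6 and run from 250 bases before to 50 bases after the start, *Bmp6* at chr13:38345466-38345765 and *Bmpr2* at chr1:59764029-59764328, each on the plus strand, and capitals mark a GC box.
Bmp6: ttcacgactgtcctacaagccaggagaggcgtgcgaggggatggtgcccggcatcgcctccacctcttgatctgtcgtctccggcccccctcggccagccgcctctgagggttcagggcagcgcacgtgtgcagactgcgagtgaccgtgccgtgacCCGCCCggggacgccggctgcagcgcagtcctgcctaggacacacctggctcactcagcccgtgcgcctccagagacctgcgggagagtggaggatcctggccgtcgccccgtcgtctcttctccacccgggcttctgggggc
Bmpr2: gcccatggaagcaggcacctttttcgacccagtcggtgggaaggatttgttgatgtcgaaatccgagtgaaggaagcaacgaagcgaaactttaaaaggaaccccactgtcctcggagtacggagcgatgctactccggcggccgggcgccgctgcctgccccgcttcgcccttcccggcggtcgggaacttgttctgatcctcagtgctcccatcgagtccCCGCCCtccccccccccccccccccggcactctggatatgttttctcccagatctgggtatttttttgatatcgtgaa
The GC box was searched as GGGCGG on both strands, and 35.7% of all 32851 promoters of that table hold it. Each of these promoters held 1 match, and neither held the RUNX motif TGTGGT or the TATA box TATAAA on either strand, which 16.8% and 13.6% of all promoters hold. *Bmp6* has 69.3% GC with 27 CpG and *Bmpr2* 59.3% with 23 CpG, against a median of 52.7% GC over all promoters. Of the other genes, *Bmp4*, *Bmp5*, *Bmpr1a* and *Bmpr1b* had entries, for 6 of 10 in all, and *Bmp2*, *Bmp3*, *Bmp7* and *Gdf5* had none.

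*Bmp7* (ENSMUSG00000008999, chr2:172868012-172940321, minus strand), a ligand with broad roles in skeletal and kidney development, was likewise highest in condyle. It was counted there at 13.7, 10.2 and 11.04 FPKM in *Fgfr2+/+* and at 17.7, 18.9 and 12.4 FPKM in *Fgfr2+/S252W* embryos, against 4.01 to 6.33 FPKM over the 6 bone libraries and 4.91 to 8.94 FPKM over the 6 MC libraries. Condyle did not overlap with either tissue. The condyle exceeded MC by 1.12 ± 0.17 (limma adjusted p = 2.47e-05), in 6 of 6 embryos. Among *Fgfr2+/+* embryos alone and without MC replicate 1 it was 0.48 ± 0.25 (limma adjusted p = 0.129). Bone held 0.379 times the condylar level, with a difference of -1.40 ± 0.17 (limma adjusted p = 4.25e-06), lower in 6 of 6 embryos. Bone and MC overlapped, with an interval of -0.65 to 0.09 for bone minus MC. Without *Fgfr2+/+* MC replicate 1 that difference was -0.44 (limma adjusted p = 0.0374), and -0.90 ± 0.26 (limma adjusted p = 0.0116) among *Fgfr2+/+* embryos alone.

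*Bmp3* marked bone. The gene (ENSMUSG00000029335, chr5:98854439-98880960, plus strand) encodes a ligand of bone that is known to restrain the action of osteogenic BMPs. Bone held 33.1, 19.1 and 33.1 FPKM in *Fgfr2+/+* and 30.7, 39.7 and 48.6 FPKM in *Fgfr2+/S252W* embryos, whereas MC held 2.64 to 7.68 FPKM and condyle 1.76 to 5.23 FPKM over 6 libraries each. The lowest bone library was above the highest library of either cartilage. Bone exceeded MC by 2.77 ± 0.25 (6.81-fold, limma adjusted p = 1.85e-07) and condyle by 3.69 ± 0.28 (12.9-fold, limma adjusted p = 1.70e-08), in 6 of 6 embryos each.

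The cartilages differed less in *Bmp3*, with overlapping libraries and condyle minus MC at -0.92 ± 0.31 (limma adjusted p = 0.0176), lower in 5 of 6 embryos. That call was lost without *Fgfr2+/S252W* MC replicate 1 (-0.57, limma adjusted p = 0.148), with no filter (-0.80, limma adjusted p = 0.0623) and among *Fgfr2+/S252W* embryos alone (-0.49, limma adjusted p = 0.422).

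*Gdf5* and *Bmpr1b* were detected mainly in MC. *Gdf5* (ENSMUSG00000038259, chr2:155941023-155945367, minus strand), the ligand of joint formation, was counted in MC with 6, 147 and 65 fragments in *Fgfr2+/+* and 229, 68 and 50 fragments in *Fgfr2+/S252W* embryos, or 0.240, 12.1 and 5.25 FPKM and 13.2, 6.60 and 3.77 FPKM. Bone held 0 to 6 fragments and condyle 2 to 10 fragments per library. The only library without a fragment was *Fgfr2+/+* bone replicate 2, where 3 fragments, the limit a count of 0 allows, would be 0.0949 FPKM. All MC libraries but *Fgfr2+/+* replicate 1 lay far above both other tissues, and the 6 fragments of that library equalled the highest bone count.

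Pooled over 6 libraries, *Gdf5* was 104-fold higher in MC (565 fragments) than in bone (15 fragments), with a 95% counting interval of 62.2 to 186, which covers counting error only. Against condyle (37 fragments) the ratio was 27.7 (19.9 to 39.8). The filter used FPKM by total fragments, without TMM factors, and on that scale *Gdf5* and *Bmpr1b* exceeded 1 FPKM in 5 of 18 libraries each. They were therefore left out of the fit of 11469 genes and were tested among 14881 genes kept by the filterByExpr function of edgeR. There the difference of *Gdf5* was -6.35 ± 0.80 for bone minus MC and -4.24 ± 0.65 for condyle minus MC, and -6.98 ± 0.56 and -5.08 ± 0.47 without *Fgfr2+/+* MC replicate 1. *Gdf5* passed that filter through MC, where it is high, so these are given as values with no test. With no filter beyond 1 count in any library they were -5.93 ± 0.78 (limma adjusted p = 2.05e-05) and -4.15 ± 0.72 (limma adjusted p = 2.01e-04). Bone minus condyle of *Gdf5* was -2.11 ± 0.74 in the fit of 14881 genes, likewise a value with no test. It was -1.14 there without *Fgfr2+/+* bone replicate 2. With no filter it was -1.78 (limma adjusted p = 0.0865).

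*Bmpr1b* (ENSMUSG00000052430, chr3:141837136-142169425, minus strand) encodes the type I receptor with the highest affinity for GDF5. MC held 1.23, 2.30 and 2.64 FPKM in *Fgfr2+/+* and 1.58, 1.39 and 2.28 FPKM in *Fgfr2+/S252W* embryos, bone held 0.106 to 0.437 FPKM and condyle 0.0310 to 0.129 FPKM. All 6 MC libraries, replicate 1 included, were above all libraries of the other tissues. The pooled ratio of MC was 8.54 to bone (95% counting interval 6.999 to 10.5) and 21.9 to condyle (15.4 to 32.1), and the differences fitted with no filter were -2.92 ± 0.37 for bone minus MC (limma adjusted p = 1.30e-05) and -4.29 ± 0.47 for condyle minus MC (limma adjusted p = 1.51e-06). In the fit of 14881 genes bone exceeded condyle by 1.30 ± 0.44 (limma adjusted p = 0.0245), a call that was lost (0.999 to 1.30, limma adjusted p = 0.0508 to 0.0869) without *Fgfr2+/+* bone replicate 1 or condyle replicate 2 or 3, or *Fgfr2+/S252W* bone replicate 2 or condyle replicate 2 or 3, each left out alone. Even in MC, *Bmpr1b* was the smaller part of the type I receptors described here, with 4.58 to 11.7% of the sum of *Bmpr1a* and *Bmpr1b*, against at most 1.90% in bone and 0.958% in condyle.

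*Bmp2*, *Bmp4* and *Bmp5* passed in no comparison of tissues. *Bmp2* (ENSMUSG00000027358, chr2:133552159-133562885, plus strand), a strong inducer of bone and cartilage, had a lowest, median and highest level of 3.33, 5.31 and 7.86 FPKM in bone, 1.10, 5.81 and 6.64 FPKM in MC and 3.40, 4.51 and 10.6 FPKM in condyle. *Bmp4* (ENSMUSG00000021835, chr14:46383520-46390669, minus strand), which also patterns the early jaw, had 8.51, 11.4 and 14.8 FPKM in bone, 2.75, 12.7 and 18.7 FPKM in MC and 6.20, 12.3 and 29.3 FPKM in condyle. *Bmp5* (ENSMUSG00000032179, chr9:75775364-75900310, plus strand), a ligand of skeletal shape, had 4.52, 5.27 and 6.41 FPKM in bone, 1.18, 5.01 and 6.59 FPKM in MC and 3.42, 5.32 and 6.67 FPKM in condyle. For each of the 3 the tissues overlapped, and the 95% intervals of the 9 tissue differences all lay within -0.76 and 0.93. For *Bmp4* they average over genotypes: bone minus MC was 1.04 ± 0.41 (limma adjusted p = 0.0641) in *Fgfr2+/+* embryos, or 0.28 ± 0.35 (limma adjusted p = 0.564) without MC replicate 1, and -0.72 ± 0.36 (limma adjusted p = 0.133) in *Fgfr2+/S252W* embryos, and bone minus condyle 0.52 ± 0.42 (limma adjusted p = 0.400) and -0.86 ± 0.36 (limma adjusted p = 0.101).

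The lowest MC value of *Bmp2* and of *Bmp4* was that of *Fgfr2+/+* replicate 1. In condyle, the third library of each genotype held the highest *Bmp2* of its group, 9.14 FPKM in *Fgfr2+/+* and 10.6 FPKM in *Fgfr2+/S252W*, against 3.40 to 4.69 FPKM in the other 4 libraries, and also the highest *Bmp4* (13.1 and 29.3 FPKM) and *Bmp6*. These libraries also had the highest osteoblast marker sums of condyle, 4495 and 6956 FPKM against 1861 to 2322 FPKM, and the highest shares of *Gm42418*, 20.1 and 20.2% against 10.9 to 14.3%. The part of either in the levels of these ligands was not tested.

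*Bmpr2* (ENSMUSG00000067336, chr1:59764279-59870549, plus strand), the type II receptor, ranged from 32.3 to 45.2 FPKM in bone, 28.6 to 36.2 FPKM in MC and 29.3 to 38.5 FPKM in condyle, and its 3 tissue differences had intervals within -0.19 and 0.44. With no filter bone minus MC was 0.35 ± 0.12 (limma adjusted p = 0.0204), where the median over all genes was -0.39. With libraries scaled by totals without mitochondrial genes and *Gm42418* bone minus condyle was 0.35 ± 0.13 (limma adjusted p = 0.0386), where that median was 0.21. The SD of the log2 values of *Bmpr2* within groups was 0.119 to 0.170, below the median over all genes of 0.222 in bone, 0.487 in MC and 0.324 in condyle. *Bmpr1a* (ENSMUSG00000021796, chr14:34410734-34503341, minus strand), the more abundant type I receptor, was highest in MC with 19.4 to 25.6 FPKM, against 13.3 to 22.6 FPKM in bone and 12.7 to 15.9 FPKM in condyle. MC and condyle did not overlap, and the difference of condyle minus MC was -0.56 ± 0.12 (0.676 times the level, limma adjusted p = 5.53e-04), lower in 6 of 6 embryos. Bone minus MC was -0.39 ± 0.11 (limma adjusted p = 0.00983) with overlapping libraries, and was not called among *Fgfr2+/+* embryos alone (-0.17, limma adjusted p = 0.454) or with libraries scaled by totals without mitochondrial genes and *Gm42418* (-0.28, limma adjusted p = 0.0945). Bone minus condyle, 0.18 ± 0.12 over all embryos (limma adjusted p = 0.234), was called among *Fgfr2+/+* embryos alone (0.47 ± 0.16, limma adjusted p = 0.0353) and was -0.11 ± 0.16 (limma adjusted p = 0.691) among *Fgfr2+/S252W* embryos.

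Counted over the 8 genes in the fit of 11469, 3 passed between bone and MC, where 49.3% of the 11469 genes tested passed, 3 between bone and condyle (41.3%) and 4 between condyle and MC (54.4%), and these counts are not read as a result about the group. Of those called, 2 were higher (24.7% of all genes) and 1 lower (24.6%) in bone than in MC, 1 was higher (21.6%) and 2 lower (19.6%) in bone than in condyle, and 2 were higher (27.1%) and 2 lower (27.4%) in condyle than in MC. Libraries of the compared tissues did not overlap for 1 of 8 between bone and MC (24.9% of all genes), for 3 of 8 between bone and condyle (31.9%) and for 3 of 8 between condyle and MC (29.5%). With the filterByExpr filter 5, 5 and 6 of the 10 genes passed in these comparisons, against 48.1%, 43.1% and 54.2% of all genes. *Gdf5*, kept through its level in MC, is counted in all 3, where its calls do not stand as tests. In captured tissue, fewer cells of a type and less RNA per cell cannot be told apart, and the tissues also differed in their markers of bone and cartilage as given above, whose part in these differences was not tested.

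**Figure D4:**
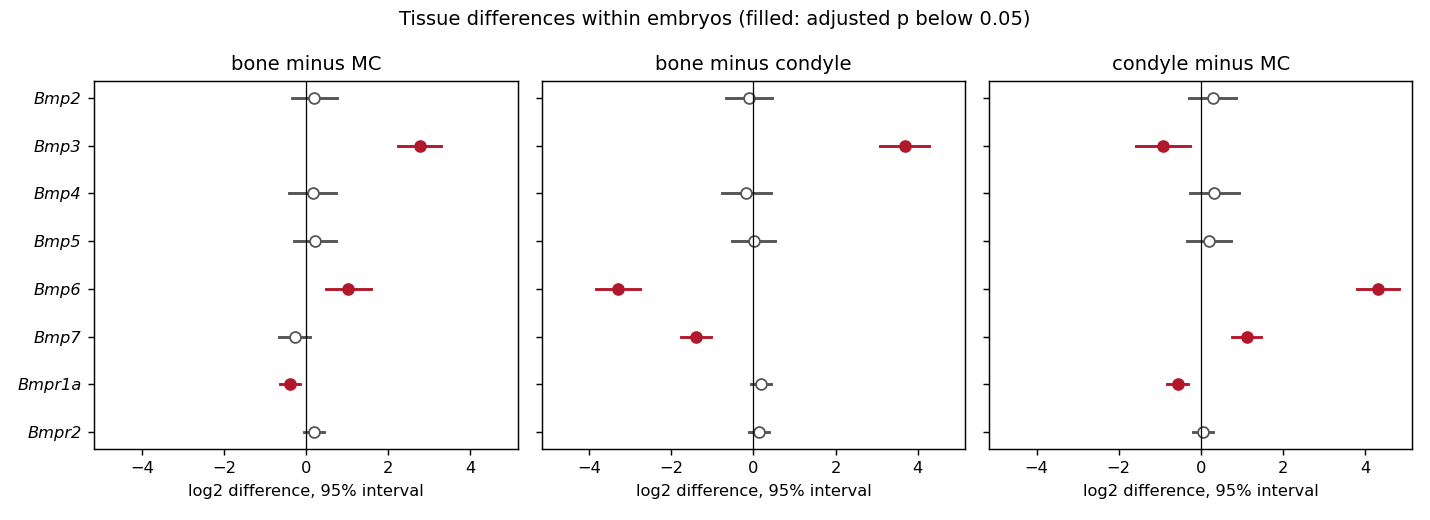
Log2 differences between tissues within embryos, with 95% intervals, for the 8 genes kept by the filter of 1 FPKM, filled where the limma adjusted p is below 0.05. *Bmp6* reaches 4.32 for condyle minus MC and *Bmp3* 3.69 for bone minus condyle, while *Bmp2*, *Bmp4*, *Bmp5* and *Bmpr2* stay near 0 in all panels.

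The comparison of *Fgfr2+/S252W* with *Fgfr2+/+* embryos asked whether the Apert allele is accompanied by other levels of these genes. None of the 10 genes passed the threshold in any tissue. The background was as low, with 10 of 11469 genes called in bone (0.0872%) and 0 in MC and in condyle (0%). At an unadjusted p under 0.05, 932 genes were found in bone (8.13%), 1761 in MC (15.4%) and 351 in condyle (3.06%), among them 1, 1 and 2 of the 8 genes. The quasi-likelihood test of edgeR called 4, 90 and 0 genes and DESeq2 17, 423 and 3 genes at an adjusted p below 0.05, and neither called any of the 8.

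In bone the levels of 5 of the 8 genes did not overlap between genotypes, which held for 20.4% of all genes tested. *Bmp4* was counted at 8.51, 8.72 and 10.9 FPKM in *Fgfr2+/S252W* and at 14.8, 11.9 and 14.2 FPKM in *Fgfr2+/+* embryos, a difference of -0.55 ± 0.34 (limma adjusted p = 0.732). *Bmpr1a* lay at 13.3, 13.8 and 15.1 FPKM in *Fgfr2+/S252W* and at 22.6, 19.0 and 16.6 FPKM in *Fgfr2+/+* embryos (-0.45 ± 0.14, unadjusted p = 0.00514, limma adjusted p = 0.358). In each case all 3 *Fgfr2+/S252W* libraries lay below all 3 *Fgfr2+/+* libraries, as they did for *Bmp6* (4.40 to 6.17 FPKM against 6.18 to 8.80 FPKM, nearly touching, -0.42 ± 0.28). *Bmp7* (5.67 to 6.33 FPKM against 4.01 to 5.38 FPKM, 0.40 ± 0.22) and *Bmp5* (5.45 to 6.41 FPKM against 4.52 to 5.10 FPKM, 0.24 ± 0.29) lay above. The adjusted p of *Bmpr1a* fell to 0.00970 with sample quality weights in limma and to 0.0321 without *Fgfr2+/+* MC replicate 1 and *Fgfr2+/+* bone replicate 3. *Bmp4* was called with a replicate block in the bone libraries alone, where 554 of 12322 genes were, as given in the part on processing.

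Summed marker levels of other cell types in the bone libraries are given beside these values. No tested gene of the cartilage, osteoclast, red cell, joint and perichondrium or muscle lists passed between genotypes, and 1 of the macrophage list did. The summed FPKM of 8 cartilage markers was 57.5 to 77.2 in *Fgfr2+/S252W* and 18.2 to 47.6 in *Fgfr2+/+*. The summed FPKM of 5 osteoclast markers was 586 to 772 in *Fgfr2+/S252W* and 368 to 452 in *Fgfr2+/+*, that of 5 red cell markers 404 to 769 and 1626 to 1956, that of 4 macrophage markers 8.99 to 19.1 and 39.3 to 43.7 and that of 6 joint and perichondrium markers 164 to 215 and 235 to 403, each without overlap. The sums of 6 muscle markers (0.473 to 7.47 and 6.997 to 63.9) and of 10 osteoblast and bone markers (7719 to 8997 and 6192 to 9743) overlapped. Mitochondrial genes took 23.4 to 23.6% in *Fgfr2+/S252W* and 35.95, 34.8 and 20.4% in *Fgfr2+/+* bone. Their part in the levels of *Bmp4*, *Bmp6*, *Bmp7*, *Bmp5* and *Bmpr1a* was not tested.

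In MC, *Bmp4* lay at 18.7, 14.8 and 13.1 FPKM in *Fgfr2+/S252W* and at 2.75, 9.55 and 12.4 FPKM in *Fgfr2+/+* embryos. It was the only 1 of 8 genes whose genotypes did not overlap there (13.4% of all genes), with a difference of 1.40 ± 0.46 (unadjusted p = 0.00644, limma adjusted p = 0.179). The lowest value is that of *Fgfr2+/+* replicate 1, without which the difference was 0.53 ± 0.39 (limma adjusted p = 0.601). The difference of *Gdf5* in MC was 2.14 ± 0.81 in the fit of 14881 genes (limma adjusted p = 0.232), and -0.14 (limma adjusted p = 0.941) without the same library. The cartilage marker sum of MC was 405 to 1831 FPKM in *Fgfr2+/S252W* and 74.4 to 654 FPKM in *Fgfr2+/+* embryos and that of 4 macrophage markers 38.68 to 45.1 and 4.47 to 30.1 FPKM, and their part in these values was not tested.

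In condyle no gene was free of overlap (9.77% of all genes), and the differences with the smallest p were those of *Bmp7* (0.49 ± 0.19, unadjusted p = 0.0194) and *Bmp4* (0.83 ± 0.36, unadjusted p = 0.0338), each with a limma adjusted p of 0.998. Without *Fgfr2+/S252W* condyle replicate 3, which held 29.3 FPKM, the difference of *Bmp4* was 0.49 ± 0.35.

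The data do not show equal levels in the genotypes for the remaining genes. The 95% interval of *Fgfr2+/S252W* minus *Fgfr2+/+* for *Bmp2* was -0.99 to 0.79 in bone, -0.28 to 2.25 in MC and -0.87 to 1.09 in condyle, and that for *Bmp3* was -0.01 to 0.99, -1.55 to 0.37 and -0.71 to 1.18. The MC estimate of *Bmp2* was 0.99 with and -0.12 ± 0.50 (limma adjusted p = 0.946) without *Fgfr2+/+* MC replicate 1. That of *Bmp5* was 0.48 with and 1.14 ± 0.46 (limma adjusted p = 0.307) without the same library, and -0.13 ± 0.30 (limma adjusted p = 0.862) without *Fgfr2+/+* MC replicate 3. *Bmpr2* was narrower, with -0.03 to 0.54, -0.21 to 0.44 and -0.07 to 0.53.

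**Figure D5:**
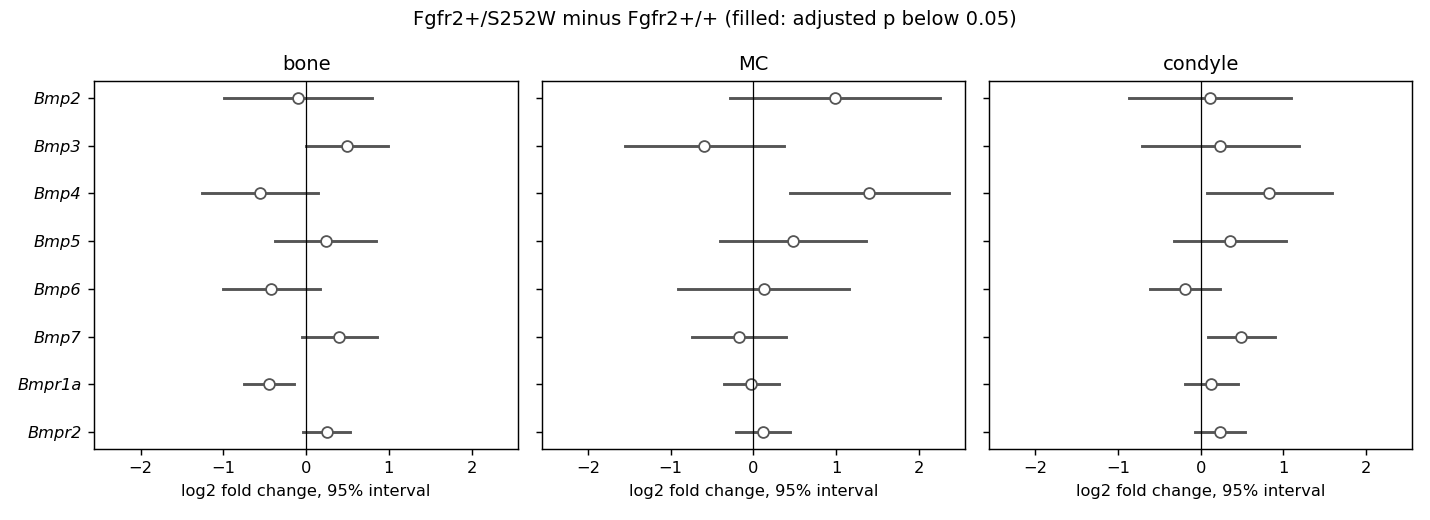
Log2 fold change of *Fgfr2+/S252W* over *Fgfr2+/+* embryos in each tissue with 95% intervals for the 8 genes kept by the filter of 1 FPKM. No point is filled, and *Bmp4* lies at -0.55 in bone, 1.40 in MC and 0.83 in condyle.

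The estimates for *Bmp4*, none of which passed, were -0.55 in bone, 1.40 in MC and 0.83 in condyle, where the genotypes overlapped, and the difference of these effects was tested within embryos. Bone minus MC was -1.76 ± 0.55 (unadjusted p = 0.00524, limma adjusted p = 0.401) and -0.997 ± 0.445 (limma adjusted p = 0.510) without *Fgfr2+/+* MC replicate 1, and bone minus condyle was -1.38 ± 0.56 (limma adjusted p = 1.00). For *Bmpr1a*, bone minus condyle was -0.59 ± 0.23 (limma adjusted p = 1.00), and for *Bmp3* bone minus MC was 1.06 ± 0.50 (limma adjusted p = 0.545). No interaction of the 8 genes passed, where 4 of 11469 genes passed for bone minus MC (0.0349%) and 0 for the other pairs of tissues (0%). At an unadjusted p under 0.05 there were 2 of 8 for bone minus MC (9.12% of all genes), 2 for bone minus condyle (1.93%) and 0 for condyle minus MC (7.88%).

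Other genes of the pathway were counted by list over all 18 libraries, *Fgfr2+/+* MC replicate 1 included, and were not fitted without it. Of 10 further ligands, 3 passed the filter. *Gdf10* was at 18.8 to 36.4 FPKM in MC and below 3.3 FPKM elsewhere (bone minus MC -4.12 ± 0.28, limma adjusted p = 1.37e-08). *Bmp8a* was at 2.62 to 6.81 FPKM in bone, 6.22 to 14.3 FPKM in condyle and at most 0.116 FPKM in MC, and may share reads with its close paralog *Bmp8b*. *Gdf7*, which was below the filter, was at 4.26 to 20.5 FPKM in MC and at most 0.273 FPKM in the other tissues, a pattern chosen for mention after its values were seen.

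Among the 8 tested of 9 other receptors and co-receptors, 6 were lower in condyle than in MC and 0 higher, with a median difference of -1.02 against -0.01 over all genes, of which 27.4% were lower and 27.1% higher. In bone, 5 were higher and 1 lower than in condyle (21.6% and 19.6% of all genes). *Acvr1*, another type I receptor, had medians of 11.9 FPKM in bone, 8.50 FPKM in MC and 5.80 FPKM in condyle. *Tgfbr3*, a co-receptor, had medians of 3.47, 14.1 and 0.437 FPKM (condyle minus MC -4.73 ± 0.45, limma adjusted p = 1.58e-07). Of 6 SMADs, 2 were higher and 0 lower in bone than in MC (24.7% and 24.6% of all genes), led by *Smad9* (1.08 ± 0.22, limma adjusted p = 6.73e-04), 2 were higher and 0 lower in bone than in condyle (21.6% and 19.6%), led by the inhibitory *Smad6* (2.17 ± 0.37, limma adjusted p = 1.27e-04), and 1 was higher and 1 lower in condyle than in MC (27.1% and 27.4%).

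Target genes did not move as 1 group. Of 14 tested of 16, 8 were higher and 1 lower in bone than in condyle with a median difference of 0.80 (41.3% of all genes called), 6 higher and 4 lower in bone than in MC (49.3%), and 4 higher and 7 lower in condyle than in MC (54.4%). *Id3* had medians of 67.1 FPKM in bone, 31.6 FPKM in MC and 29.4 FPKM in condyle, whereas *Msx1* was highest in MC (17.0 to 24.1 FPKM) and lowest in condyle (0.0859 to 0.530 FPKM), and *Hey1* was highest in bone (21.4 to 43.0 FPKM). Of 10 tested of 19 antagonists and modulators, 5 were higher and 4 lower in condyle than in MC (27.1% and 27.4% of all genes), with a median difference of 0.60. The 4 of smallest p were *Bmper* (13.9 to 42.9 FPKM in condyle, at most 4.10 FPKM elsewhere), *Chrdl1* and *Twsg1*, which were higher in condyle, and *Fstl1*, which was lower (11.6 to 31.4 FPKM against 144 to 199 FPKM in MC). *Nbl1* (-4.71 ± 0.53, limma adjusted p = 1.00e-06) and *Sostdc1* (-5.63 ± 0.93, limma adjusted p = 6.26e-05), named after their values were seen, were lower as well, so that secreted antagonists of BMPs stood on both sides. No gene of these 5 lists passed between genotypes in any tissue, the smallest adjusted p being that of *Acvr1* in MC (0.85 ± 0.21, limma adjusted p = 0.0964). *Chrdl1*, which the study names among genes downregulated in the mutant mandible, was lower in bone but did not pass here (-0.83 ± 0.28, unadjusted p = 0.00707, limma adjusted p = 0.396).

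The gene whose pattern over the 18 libraries was nearest to that of each of these 8 genes, measured as the mean absolute difference of log2 values centred on each gene, was *Csf1* for *Bmp3* (0.396 against a median of 1.55 over all genes), *Klhl13* for *Bmp6* (0.344 against 1.73), *Mtmr3* for *Bmp7* (0.218 against 0.764), *Midn* for *Bmp2* (0.326 against 0.720), *Wwc2* for *Bmp4* (0.322 against 0.705), *Mospd1* for *Bmp5* (0.171 against 0.614), *Cpsf6* for *Bmpr1a* (0.144 against 0.560) and *Macf1* for *Bmpr2* (0.105 against 0.511). These likenesses describe libraries that share tissue and depth and were not tested.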

How the data were processed

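RNA was amplified and sequenced as paired ends in 18 libraries. Per the labels and the study's methods, the authors trimmed with cutadapt, mapped to mm10 with STAR and counted fragments with featureCounts 1.5.0-p1 on both strands in Ensembl 75 exons, so the deposited values are raw counts. Unstranded counting leaves antisense overlaps unresolved. Tissue, genotype and replicate came from the labels, and the embryo shared by 3 tissues from their sample codes.

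The filter retained 11469 genes that exceeded 1 FPKM in 50% or more of the libraries, with TMM factors of edgeR 4.0.16 and voom and eBayes of limma 3.58.1 in R 4.3.3. Genotype effects used 1 mean for each of 6 groups. Tissue differences and interactions added a term per embryo. The threshold was an adjusted p (Benjamini-Hochberg) of 0.05. The fits were also run on simulated counts with planted differences. Those counts held no embryo effect and no deviating library, so nothing is concluded from them here. Genes named are the 10 members, up to 4 genes of smallest p per pathway list, the nearest gene per member, *Fgfr2* and *Gm42418*; *Gdf7*, *Bmp8b*, *Nbl1*, *Sostdc1* and the third condyle libraries were singled out after their values were seen. The members and lists were chosen with earlier results of these data known. DESeq2 1.42.0, edgeR's quasi-likelihood test, other filters, scalings, weights and blocks, and leaving out libraries were the alternatives. Replicates are separate embryos, with 3 per group. Depth was 8218548 to 15585778 fragments, so genes of a few fragments carry large counting error.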

Additional observations from a re-analysis of the deposited data

How the results depend on the processing

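Depth limited *Gdf5* and *Bmpr1b*, which had 0 to 38 fragments per bone or condyle library. Of the 8 genes in the fit of 11469, the tissue differences of largest size (*Bmp6*, *Bmp7* and *Bmp3* of bone against condyle, *Bmp6* and *Bmp7* of condyle against MC, *Bmp3* of bone against MC) kept their direction and side of the threshold in the alternatives run, except *Bmp7* of condyle against MC among *Fgfr2+/+* embryos without MC replicate 1 (0.48, limma adjusted p = 0.129), a fit added after seeing the data. Of 50 other fits, with an unadjusted p of 0.05 or more and overlapping genotypes, 31 changed sign in at least 1 alternative, in 101 of 1067 fits. In 7 of these a difference of tissues was called: *Bmp7* of bone against MC in 3, and *Bmpr1a* (2) and *Bmpr2* (2), as given here or with these genes.

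Genes called between genotypes in bone numbered 10 in the fit reported, 4 with edgeR, 17 with DESeq2, 21 with filterByExpr, 53 with no filter, 3 with library totals free of mitochondrial genes and *Gm42418*, 589 with sample quality weights, 141 with the 6 bone libraries alone, 0 to 91 without 1 library (91 without *Fgfr2+/+* bone replicate 3) and 307 without *Fgfr2+/+* bone replicate 3 and MC replicate 1, which was chosen after seeing the data. The weights (589 of 11469 genes called) and that pair (307 of 11409) each called 1 of the 8 genes, *Bmpr1a*. In MC the count was 0, 90 with edgeR, 423 with DESeq2, 45 with no filter, 1 with embryo as a random effect and 0 to 138 without 1 library. In condyle it was 0, 3 with DESeq2 and 2 with weights. For the interaction of bone and MC it was 4, 1 with edgeR, 68 with DESeq2, 1 with filterByExpr, 0 with no filter, 0 to 8 without 1 library and 0 without that pair. For bone and condyle it was 0, 2 with DESeq2 and 1 without the pair, and for condyle and MC 0 and 40 with DESeq2. The cause was not tested.

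Bone and MC differed in 3668 genes in *Fgfr2+/+* embryos alone and in 12952 with no filter, bone and condyle in 2781 in *Fgfr2+/S252W* embryos alone and in 7379 with no filter, and condyle and MC in 10222 with no filter. With filterByExpr 5 of the 10 genes were called between bone and MC (48.1% of 14881 genes) and 5 between bone and condyle (43.1%). *Gdf5*, kept by that filter through MC, is counted in both. With no filter 5 of the 10 were called between bone and MC, where 12952 of 25857 genes were. Library totals free of mitochondrial genes and *Gm42418* called 5 of 8 between bone and condyle, *Bmpr1a* and *Bmpr2* being added, and 4833 of 11469 genes. They shifted the median of all genes by 0.21 there, and the genes higher and lower in bone went from 2480 and 2251 to 3295 and 1538. Against MC, bone went from 2834 and 2823 to 3171 and 2390 and condyle from 3103 and 3140 to 2666 and 3557. *Gdf5* between genotypes in MC (2.14) ranged from -0.14 to 3.11 without 1 library, reversed only without *Fgfr2+/+* MC replicate 1, in which it had 6 fragments.

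Deviations of libraries with the same replicate number correlated at 0.07 (-0.12 to 0.20) in bone, -0.09 in MC and 0.13 (0.04 to 0.28) in condyle. The labels do not say that the numbers pair the genotypes, and they were not taken to. Deviations of 2 tissues of an embryo correlated at 0.02 for bone and MC, -0.02 for bone and condyle and -1.69e-04 for condyle and MC. The embryo term was kept since the sample codes give the embryo. With a replicate block, 554 of 12322 genes were called in the 6 bone libraries. *Bmp4* alone of the 8 genes was among them (-0.55, limma adjusted p = 0.0443) as 1 call. In the 6 libraries of MC and of condyle 0 and 7 genes were called. In the fit of 18 libraries the replicate block called 7, 0 and 0 genes.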
